A study of Homo sapiens with 3 samples.

Results

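The matrix proteases, the cathepsins and the TIMPs were examined in RNA-seq of H128 cells, an established human small cell lung cancer (SCLC) line. Members were taken by gene symbol: matrix metalloproteinases (MMP), ADAM proteins, ADAMTS and ADAMTS-like (ADAMTSL) proteins, tissue inhibitors of metalloproteinases (TIMP1 to TIMP4) and cathepsins (CTS). Of the 17448 genes of the table, 69 were members: 15 MMPs, 15 ADAMs, 21 ADAMTS and ADAMTSL genes, 3 TIMPs and 15 cathepsins.

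The cells had been transfected for 48 h with a control siRNA (siCont) or with 1 of 2 siRNAs against ESRRG, which encodes the orphan nuclear receptor ERRγ. Each of the 3 conditions was sequenced as 1 library, and the ESRRG siRNA libraries are labelled siERRG2 and siERRG3. Which of the study's siRNAs was used for siERRG2 and which for siERRG3 is not settled by the labels and was not inferred. The model is 1 established line grown in culture.

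MMPs are zinc proteases that cut collagens, laminins and other matrix proteins, and the membrane-type MMPs act at the cell surface. ADAMs are membrane-bound relatives that release the outer part of receptors and growth factors, although several ADAMs lack the catalytic zinc site and act as adhesion proteins. ADAMTS proteins are secreted and cut proteoglycans and procollagens, TIMPs block the active site of metalloproteinases, and cathepsins are mainly lysosomal proteases that tumour cells can also secrete.

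For 43 of the 69 members, promoter windows of 250 bases before to 50 bases after the gene start were found in the RefSeq promoter table (GRCh38.p14), 44 windows in all. They were searched on both strands for the ERR half-site AAGGTCA, for the AP-1 site TGACTCA or TGAGTCA, long known from MMP promoters, and for TCACGTGA, the core of the CLEAR element found in lysosomal genes. The first letters of the CLEAR core, TCA, are also the last letters of the other motifs, so that matches can share them. The following 3 windows are shown because each is the member promoter in which 1 of the motifs occurred. They are written 5′ to 3′ on the gene's strand, with the motif in capitals.
ADAMTSL5: ccgagcctgccAAGGTCAcccggacccgg
MMP7: aaacactcaaaTGAGTCAcctatttccac
CTSA: ggcgccggagtTCACGTGActcgtacacat
The ADAMTSL5 window lies at chr19:1513225-1513253 on the minus strand, with the motif 223 to 217 bases before the start. The MMP7 window lies at chr11:102530797-102530825 on the minus strand, with the motif 67 to 61 bases before the start. The CTSA window lies at chr20:45891298-45891327 on the plus strand, with the motif 26 to 19 bases before the start. Each motif was thus found in 2.27% of the 44 member promoters. Over all 35116 promoters of the same length the shares were 3.92% for the ERR half-site, 4.95% for AP-1 and 0.98% for the CLEAR core. A match is a run of letters in this window and no evidence of binding. Counts are given throughout in the order siCont, siERRG2, siERRG3. ADAMTSL5 had 17, 14 and 13 counts and MMP7 had 12, 13 and 12, too few to show a change of 1.2-fold, while CTSA was well measured and is described with the cathepsins.

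The libraries held 19861937 to 20016780 counts, of which the members took 0.083% to 0.099%. ESRRG itself had 806, 211 and 230 counts. It was lower in both ESRRG siRNA libraries, with log2 fold changes of -1.94 and -1.82. All 7 neuroendocrine markers of SCLC were above 10 counts, at 4.56 to 729 FPKM in siCont. The markers of macrophages and leukocytes (6 genes) summed to 3.35, 3.18 and 4.44 FPKM in siCont, siERRG2 and siERRG3. Fibroblast markers (7 genes) summed to 26.9, 37.4 and 28.2 FPKM, most of it COL1A2. Endothelial markers (4 genes) summed to 17.9, 19.8 and 7.25 FPKM, nearly all of it CDH5, with VWF and KDR at 0 to 1 counts. The part of these cell type markers in the results below was not tested.

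A count here is the estimated number of reads of a gene, and FPKM scales it for transcript length and depth, so that levels can be compared between genes. A fold change is a difference of log2 CPM, the count scaled to library size, and the call threshold was the study's 1.2-fold. Genes that reached 10 counts in any library were tested, which were 14031 genes and 49 of the 69 members. The other 20 members had 0 to 8 counts. With 1 library per condition there is no replicate check and no p-value. The 95% intervals of a count ratio given below are exact binomial intervals (Clopper-Pearson), which cover counting error only and compare libraries, not conditions. Both ESRRG siRNA libraries were set against the same siCont library.

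Most of the level came from cathepsins and ADAMs. The cathepsins made up 55.8% of the members' summed FPKM in siCont and the ADAMs 29.9%, against 8.37% for the MMPs, 3.06% for the TIMPs and 2.86% for the ADAMTS and ADAMTSL genes. CTSD was the highest member at 64.3 FPKM in siCont, before CTSC at 41.4, ADAM15 at 34.1 and CTSA at 31.2. At least 1 FPKM in siCont was reached by 23 members, 33.3% of those listed, against 64.2% of all genes.

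**Figure D1:**
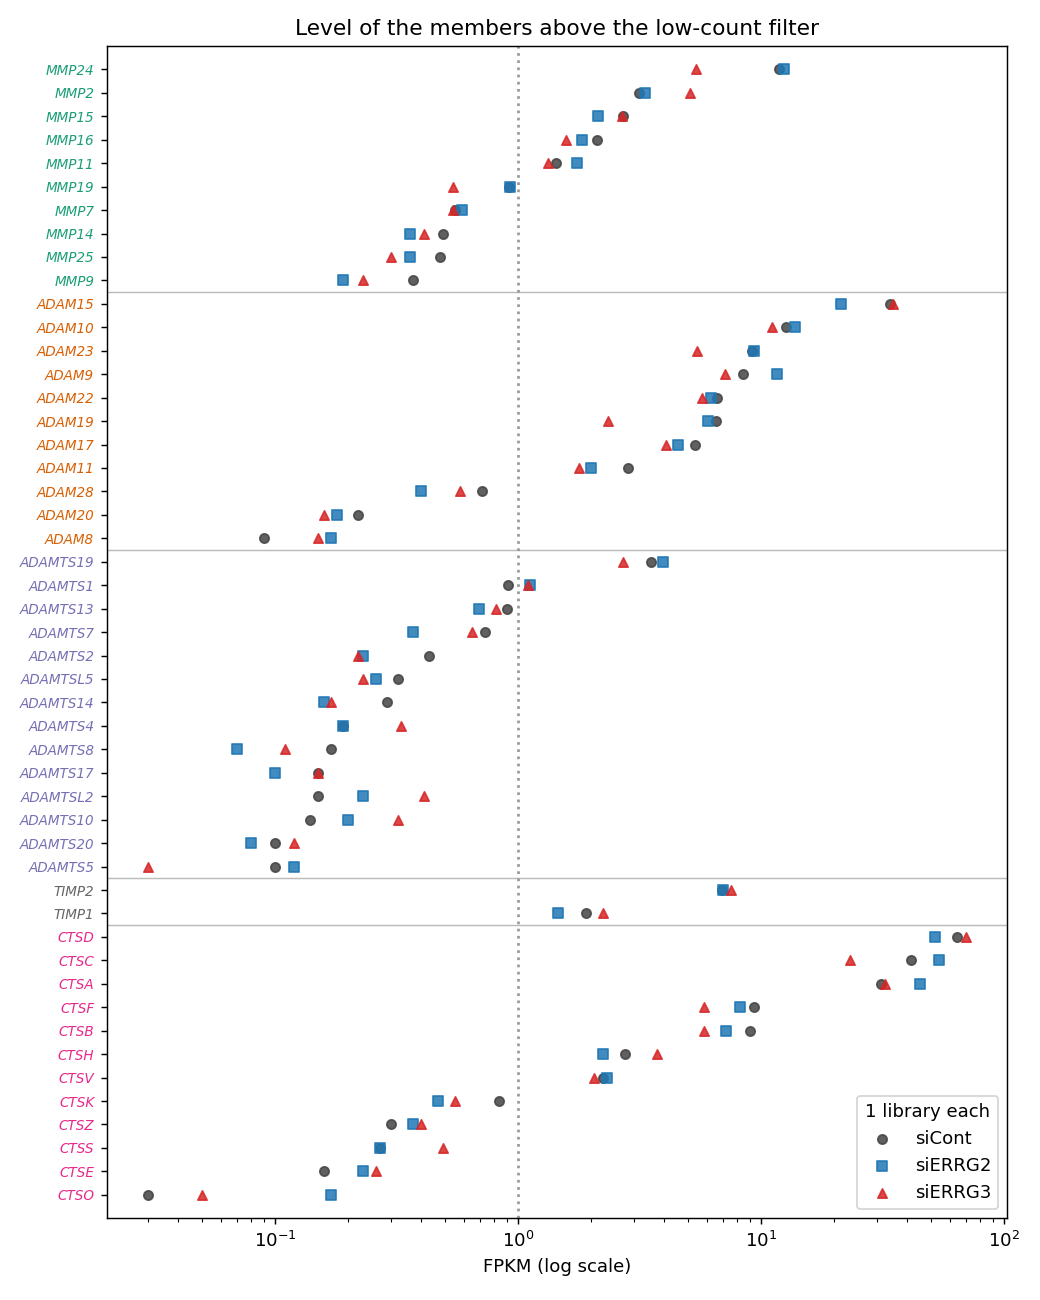
FPKM on a log scale of each member that passed the low-count filter, 1 point per library (siCont, siERRG2, siERRG3), with a dotted line at 1 FPKM. CTSD (64.3 FPKM in siCont), CTSC (41.4), ADAM15 (34.1) and CTSA (31.2) stand highest, while most ADAMTS genes lie under 1 FPKM.

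The summed level of the members was 291 FPKM with siCont, 290 with siERRG2 and 255 with siERRG3. The sum in siERRG2 was thus close to that in siCont, with members on either side of their siCont level within it. The MMPs summed to 24.3, 24.2 and 18.4 FPKM, the ADAMs to 86.9, 76.0 and 73.5, and the cathepsins to 162, 173 and 145. The ADAMs were the family whose sum was lower than siCont by over 10% in both libraries (ratios of 0.874 and 0.846). ADAM15 alone was at 34.1, 21.3 and 34.9 FPKM, so its difference in siERRG2 was larger than that of the whole family. In siERRG3 ADAM15 was not lower, so the 2 lower sums did not rest on the same genes. The TIMPs summed to 8.88, 8.47 and 9.81 FPKM, and the ADAMTS and ADAMTSL genes to 8.31, 8.02 and 7.49.

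**Figure D2:**
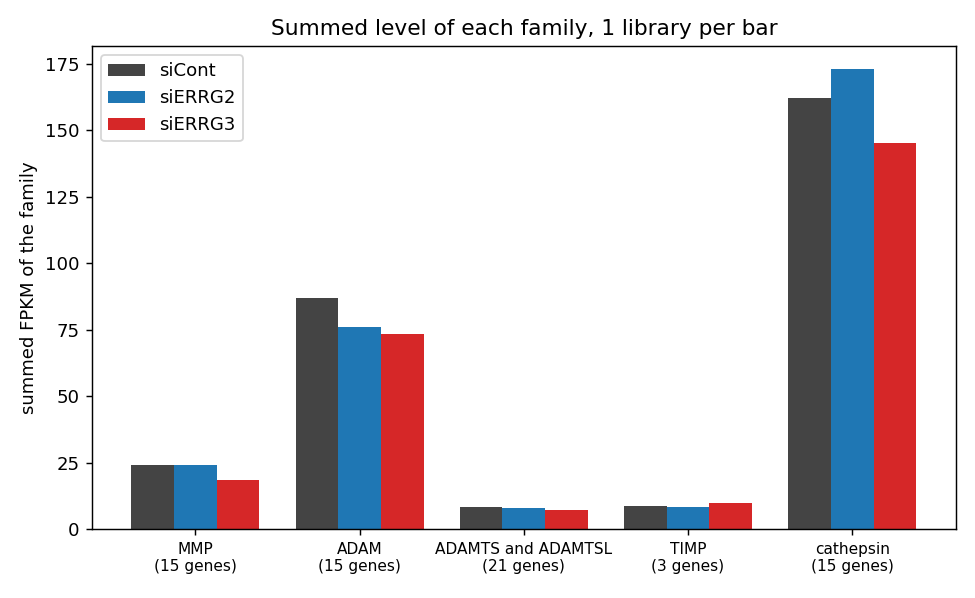
Summed FPKM of each family in siCont, siERRG2 and siERRG3, 1 library per bar and without error bars, since there are no replicates. The cathepsins (162, 173 and 145 FPKM) and the ADAMs (86.9, 76.0 and 73.5 FPKM) carry most of the level.

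In siERRG2, 18 of the 49 members tested (36.7%) were lower by at least 1.2-fold, against 19.2% of all genes tested, and 9 (18.4%) were higher, against 16.4%. In siERRG3, 22 members (44.9%) were lower, against 25.1% of all genes, and 10 (20.4%) were higher, against 23.2%. The median log2 fold change of the members was -0.10 in siERRG2 and -0.20 in siERRG3, and that of all genes was 0.00 in both. However, 23 of the 49 members averaged under 50 counts, where counting intervals are wide against the threshold, and the other 26 are called well counted below. When the interval also had to exclude 1, 6 members were lower in siERRG2 (12.2%, against 12.8% of all genes) and 4 higher (8.16%, against 10.2%). By the same rule 13 members were lower in siERRG3 (26.5%, against 19.9%) and 4 were higher (8.16%, against 17.1%). Over the 49 members, the excess of lower members in siERRG2 was thus not seen with this rule. However, the median of the mean counts was 62.3 for these members and 538 for all genes tested, so the depths are unlike. Well-counted genes alone are compared next.

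Among the 26 well-counted members, 8 were lower in siERRG2, against 15.5% of all well-counted genes, and 5 were higher, against 12.8%. In siERRG3, 12 of the 26 were lower (46.2%), against 24.3%, and 2 were higher (7.69%), against 19.4%. With the interval also excluding 1, 6 were lower (23.1%, against 13.7%) and 3 higher (11.5%, against 11.2%) in siERRG2. In siERRG3 this left 11 lower (42.3%, against 23%) and 2 higher (7.69%, against 17.9%). The shares of lower members thus lay above those of all well-counted genes in both libraries.

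Over all 49 members, 9 were lower in both libraries (18.4%, against 7.88%) and 4 were higher in both (8.16%, against 7.26%). Of these 9, 6 averaged under 50 counts, as did all 4 that were higher. Of the 4, ADAM8, CTSE and CTSO reached the 10 counts of the filter only in ESRRG siRNA libraries. Their calls as higher were thus favoured by the filter. Of the 9, ADAMTS8 (13, 6 and 8 counts) reached the filter only in siCont, so its calls as lower were favoured likewise. The well-counted members lower in both were 3, ADAM11, ADAM28 and CTSB, and 11.5% compares with 6.24% of all well-counted genes. There were 0 well-counted members higher in both, against 4.5%. For ADAM11 and CTSB both intervals also excluded 1, that is for 2 members, against 4.9% of all genes tested and 5.53% of those well counted. By that rule 0 members were higher in both, against 3.27% and 3.52%. Opposite calls were made for 2 members, CTSC and CTSH, against 6.05% of all genes tested and 4.53% of those well counted.

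**Figure D3:**
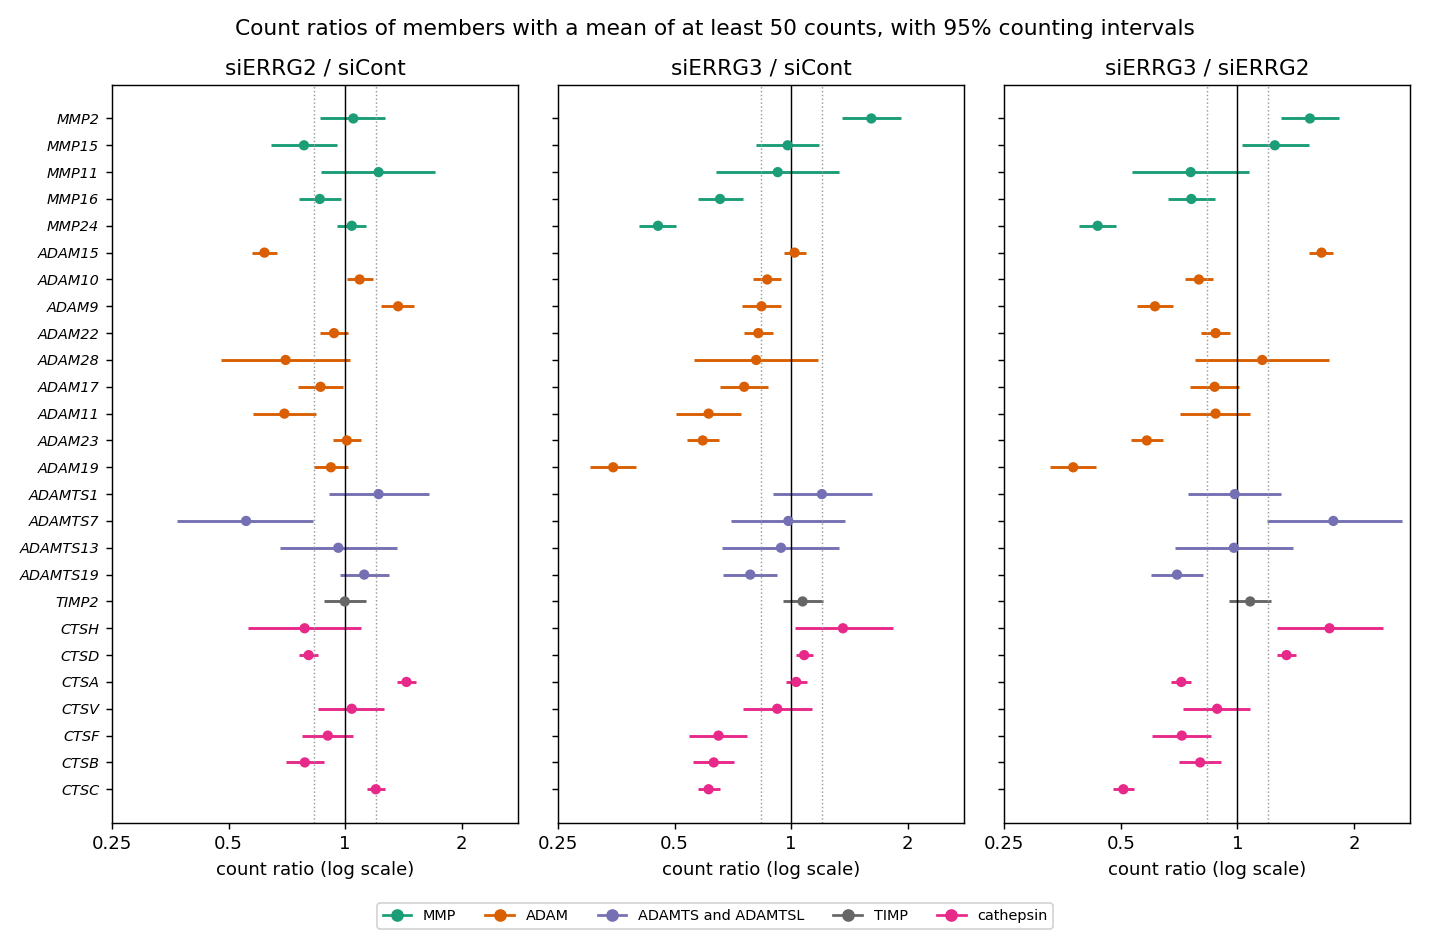
Count ratios on a log scale, scaled for library size, of the 26 well-counted members: siERRG2 to siCont, siERRG3 to siCont and siERRG3 to siERRG2. Bars are 95% exact binomial intervals for counting error, colours are families, and dotted lines mark 1.2-fold; ADAM19 and MMP24 lie farthest to the left in siERRG3.

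Of the 10 MMPs tested, 3 were lower and 1 higher in siERRG2, against 19.2% and 16.4% of all genes tested. In siERRG3, 5 were lower and 1 higher, against 25.1% and 23.2%. With the interval also excluding 1, 1 was lower and 0 higher in siERRG2, against 12.8% and 10.2%, and 3 were lower and 1 higher in siERRG3, against 19.9% and 17.1%. The median of -0.40 log2 in siERRG3 rested on the sparse genes, since it was -0.11 over the 5 that were well counted. MMP24, MMP2 and MMP15 had the highest FPKM in siCont. MMP24, a membrane-type MMP best known from neurons, had 1021, 1072 and 470 counts. It was thus lower in siERRG3 alone. On the log2 scale it differed from siCont by -1.14 there, with a ratio interval of 0.405 to 0.505, and by 0.05 in siERRG2. MMP24 lies on chromosome 20 at 35226690 to 35276998 (GRCh38.p14) and overlaps MMP24OS on the opposite strand, which had 729, 612 and 451 counts. The library kit keeps the strand, but whether the counting used it is not stated, so reads of the 2 genes cannot be told apart.

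MMP2, the secreted gelatinase that cuts basement membrane collagen, was higher in siERRG3. Its counts were 210, 222 and 344, highest in siERRG3. The log2 fold change was 0.68 there, with an interval of 1.35 to 1.92, and 0.06 in siERRG2. MMP15, another membrane-type MMP, had 231, 183 and 230 counts and was lower in siERRG2, at -0.35 on the log2 scale with an interval of 0.642 to 0.955. In siERRG3 its value was -0.03. MMP16, also membrane-type, had 554, 482 and 369 counts, lowest in siERRG3. It was called lower there, at -0.61, and not in siERRG2, at -0.22.

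The membrane-type MMPs as a class had 5 of 6 members tested, of which 2 were lower in siERRG2 and 3 in siERRG3, and 0 were higher in either. Of all genes tested, 19.2% and 25.1% were lower, and 16.4% and 23.2% were higher. With the interval also excluding 1, 1 of the 5 was lower in siERRG2, against 12.8%, and 2 in siERRG3, against 19.9%. Their medians were -0.22 and -0.61 log2, and their summed level was 17.8 FPKM with siCont, 17.2 with siERRG2 and 10.5 with siERRG3. MMP24 made up most of that difference. The other MMPs summed to 6.54, 6.96 and 7.90 FPKM. MMP11, stromelysin-3, was at 65, 80 and 61 counts, and its intervals included 1 in both libraries. MMP19 had 56, 56 and 33 counts, and its interval in siERRG3 was 0.365 to 0.907.

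MMP9, the other gelatinase, MMP23B and ADAMTS2 are plotted by the study. For key matrix genes the study also reports qRT-PCR and western blots after ESRRG knockdown. At MMP9 it further reports ChIP-qPCR of ERRγ and of the histone mark H3K27ac, with and without the ERRγ antagonist DN200434. It also shows H3K27ac ChIP-seq and published ERRγ ChIP-seq at matrix genes, and qRT-PCR and western blots with DN200434. Those experiments were not examined here. MMP9 was at the edge of detection, with 0.37, 0.19 and 0.23 FPKM in siCont, siERRG2 and siERRG3. Its log2 fold changes of -0.80 and -0.57 met the threshold, but both count ratio intervals included 1. MMP23B had 4, 3 and 2 counts and was not tested. ADAMTS8, for which the study lists qRT-PCR primers, was at 0.17, 0.07 and 0.11 FPKM, and both its intervals included 1. The MMP genes listed from the cluster at 11q22 (MMP3, MMP7 and MMP12) reached at most 13 counts in any library, and 1 of the 3 passed the filter.

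The ADAMs were the family with the largest share of lower members in siERRG3, where 7 of the 11 tested (63.6%) were lower and 1 was higher, against 25.1% and 23.2% of all genes tested. In siERRG2, 4 were lower and 2 higher, against 19.2% and 16.4%. With the interval also excluding 1, 5 were lower (45.5%, against 19.9%) and 0 higher (against 17.1%) in siERRG3, and 2 were lower (18.2%, against 12.8%) and 1 higher (9.09%, against 10.2%) in siERRG2. The medians were -0.12 log2 in siERRG2 and -0.29 in siERRG3. ADAM15, ADAM10 and ADAM23 had the highest FPKM in siCont.

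ADAM19, a catalytically active ADAM that can release neuregulin, had 820, 762 and 289 counts. Only siERRG3 stood apart. The log2 fold change was -1.52 in siERRG3, the largest of the 26 well-counted members, with an interval of 0.302 to 0.397, and -0.12 in siERRG2. ADAM19 lies on chromosome 5 at 157477304 to 157575775 (GRCh38.p14).

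ADAM15, which carries an integrin-binding motif in its disintegrin domain, showed the reverse. Its counts were 1932, 1209 and 2003, so that siERRG2 was low and siCont and siERRG3 were close. The log2 fold change was -0.69 in siERRG2, with an interval of 0.575 to 0.665, and 0.03 in siERRG3. It lies on chromosome 1 at 155051316 to 155062775.

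The general sheddases differed less from siCont. ADAM10, which cuts Notch and cadherins, had 1188, 1309 and 1048 counts and was called in neither library, at 0.12 and -0.20 log2. ADAM17, which releases TNF and EGFR ligands, had 462, 404 and 355 counts. It was called lower in siERRG3 at -0.40 and not in siERRG2 at -0.21. ADAM9 had 664, 919 and 566 counts, high in siERRG2, where its log2 fold change was 0.45 with an interval of 1.24 to 1.51. In siERRG3 it was at -0.25, just inside the threshold. ADAM17 overlaps IAH1, which had 539, 491 and 419 counts, and ADAM9 overlaps TM2D2, which had 401, 446 and 370. The part of these overlaps in the counts was not tested.

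The ADAMs without the catalytic zinc site, which act as adhesion proteins and synaptic receptors, had 3 of 4 members tested. All 3 were lower in siERRG3, where their median was -0.70 log2, and 1 of the 3 was lower in siERRG2, by the interval rule too. Of all well-counted genes, 24.3% were lower in siERRG3 and 15.5% in siERRG2, and 23% and 13.7% by the interval rule. ADAM11 had 281, 198 and 175 counts, so both ESRRG siRNA libraries were below siCont. Its log2 fold changes were -0.52 and -0.70, with intervals of 0.578 to 0.839 and 0.504 to 0.742. ADAM23 had 1153, 1180 and 693 counts and was low in siERRG3 alone, at -0.76 log2 with an interval of 0.537 to 0.650. ADAM22, a receptor of the secreted protein LGI1, had 1131, 1071 and 946 counts, with -0.10 in siERRG2 and -0.28 in siERRG3. Together these genes summed to 18.7, 17.6 and 13.0 FPKM. ADAM28, which has a catalytic site, had 69, 49 and 57 counts and met the threshold in both libraries, at -0.49 and -0.29, but its intervals of 0.477 to 1.03 and 0.562 to 1.17 included 1.

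ADAMTS and ADAMTSL genes were sparse. Of the 21 listed, 14 passed the filter and 4 were well counted. In each of siERRG2 and siERRG3, 6 of the 14 were lower (42.9%), against 19.2% and 25.1% of all genes tested, and 2 and 3 were higher, against 16.4% and 23.2%. ADAMTS8, lower in both, passed the filter through siCont alone, the library where it was high. With the interval also excluding 1, 1 was lower in siERRG2 (7.14%, against 12.8%) and 0 higher (against 10.2%). In siERRG3, 2 were lower (14.3%, against 19.9%) and 1 higher (7.14%, against 17.1%). The median of the mean counts was 17.8 for the tested genes of this family and 538 for all genes tested. At such low counts few intervals can exclude 1, so the lower shares by this rule are no result about the family. ADAMTS19 was the most abundant at 3.54 FPKM in siCont. Its counts were 350, 397 and 279, lowest in siERRG3, where it was lower, at -0.35 log2 with an interval of 0.667 to 0.920.

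ADAMTS7, which cuts the cartilage protein COMP, had 73 counts in siCont and in siERRG3 and 41 in siERRG2. The log2 fold change in siERRG2 was -0.82, with an interval of 0.369 to 0.825, and in siERRG3 it was -0.02. ADAMTS1, a protease of versican and aggrecan, had 85, 105 and 104 counts with intervals that included 1. ADAMTS13, the protease of von Willebrand factor, had 70, 68 and 67 counts and was called in neither library.

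ADAMTS2, which removes the N-terminal propeptide of fibrillar procollagens, had 23, 16 and 13 counts. The log2 fold changes of -0.49 and -0.76 met the threshold, and the intervals of 0.340 to 1.36 and 0.259 to 1.14 included 1. ADAMTS14, the other procollagen N-proteinase tested, had 25, 14 and 16 counts, also with intervals that included 1. Of the sparse genes, ADAMTS5, an aggrecanase, had 19, 23 and 5 counts with an interval of 0.0755 to 0.717 in siERRG3, and ADAMTSL2 had 12, 19 and 34 counts with an interval of 1.41 to 5.91 there. Members outside the naming rule, such as ADAMTS5, ADAMTS8, ADAMTSL2 and ADAMTS14, were picked once their values had been seen.

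Of the inhibitors, TIMP2 differed little between the libraries. TIMP2, which inhibits MMP2 and also takes part in its activation with membrane-type MMPs, was the most abundant TIMP at 6.93 FPKM in siCont. Its counts were 507, 512 and 554, with log2 fold changes of 0.00 and 0.10. The intervals were 0.881 to 1.13 and 0.951 to 1.21. They cover counting error only, so with 1 library per condition they set no bound on a change between conditions. TIMP1 had 35, 26 and 41 counts, called lower in siERRG2 at -0.42 with an interval of 0.425 to 1.26, and was at 0.19 in siERRG3. TIMP3, the matrix-bound inhibitor, had 5, 3 and 6 counts and was not tested.

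Cathepsins moved in both directions. Of the 12 tested, 4 were lower and 4 higher in siERRG2, against 19.2% and 16.4% of all genes tested, and 4 were lower and 5 higher in siERRG3, against 25.1% and 23.2%. With the interval also excluding 1, 2 were lower and 3 higher in siERRG2, against 12.8% and 10.2%, and 3 were lower and 2 higher in siERRG3, against 19.9% and 17.1%. CTSE and CTSO, called higher in both libraries, and CTSZ (9, 11 and 12 counts), called higher in siERRG3, reached the filter only in ESRRG siRNA libraries. Their calls as higher were thus favoured by the filter. Of the 7 well-counted cathepsins, 3 were lower and 2 higher in siERRG2, against 15.5% and 12.8% of all well-counted genes. In siERRG3, 3 were lower and 1 higher, against 24.3% and 19.4%. Over the 12 tested, the log2 fold changes had medians of 0.02 and 0.08 log2. Of the 7 well-counted cathepsins, 6 differed between siERRG3 and siERRG2 by at least 1.2-fold with an interval that excluded 1 (85.7%), against 44.2% of all well-counted genes.

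CTSC, dipeptidyl peptidase I, which activates granule serine proteases, had 2307, 2809 and 1436 counts. It stood above siCont with one siRNA and below it with the other. The log2 fold changes were 0.27 with an interval of 1.14 to 1.27, and -0.71 with an interval of 0.573 to 0.654. It was the single member past both criteria in opposite directions, against 2.92% of all genes tested and 3.53% of those well counted. The gene lies on chromosome 11 at 88293592 to 88337736 in RefSeq, 44.1 kb, while the table's extent for it is 791 kb.

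CTSB, a cysteine cathepsin linked to tumour invasion, was lower with both siRNAs. Its counts were 695, 553 and 446. The log2 fold changes were -0.35 and -0.66, with intervals of 0.702 to 0.881 and 0.559 to 0.712. CTSF, also a cysteine cathepsin, had 344, 314 and 227 counts and was lower in siERRG3 at -0.62, against -0.15 in siERRG2. CTSV, close in sequence to CTSL, had 202, 212 and 189 counts and was called in neither library.

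CTSA, the serine carboxypeptidase that protects lysosomal beta-galactosidase and neuraminidase, carries the CLEAR core shown above. It had 1899, 2761 and 1989 counts, so siERRG2 alone was high. The log2 fold change was 0.52 with an interval of 1.36 to 1.52 in siERRG2, and 0.04 in siERRG3. CTSA lies on chromosome 20 at 45891335 to 45898820 and overlaps PLTP, which had 1175, 1139 and 1628 counts.

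CTSD, the main aspartic protease of lysosomes, had 2714, 2209 and 2982 counts, lowest in siERRG2. It was lower there at -0.31 log2, with an interval of 0.760 to 0.851, and was at 0.11 in siERRG3. CTSH, an aminopeptidase, had 83, 66 and 115 counts. Its log2 fold change was -0.34 in siERRG2, where the interval of 0.560 to 1.10 included 1, and 0.44 in siERRG3, where the interval was 1.02 to 1.83. The cathepsins usual in macrophages and osteoclasts were sparse, with 22, 22 and 40 counts for CTSS and 30, 17 and 20 for CTSK. CTSO had 2, 10 and 3 counts, a ratio of siERRG2 to siCont of 4.94 with an interval of 1.05 to 46.4. It passed the filter through siERRG2 alone, the library where it was high, so this ratio is no support for a rise. CTSO is among the cathepsins counted above as higher by the interval rule in siERRG2.

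The 2 siRNAs were also compared directly, as siERRG3 against siERRG2. Of the 26 well-counted members, 11 were lower in siERRG3 by at least 1.2-fold with an interval that excluded 1, against 23.6% of all well-counted genes, and 6 were higher, against 20.6%. Together this was 65.4% of these members, against 44.2%. Over all 49 members, 13 were lower, against 20.4% of all genes tested, and 7 were higher, against 19.6%, together 40.8%, against 39.9%. The 5 largest differences among the well-counted members were those of ADAM19 (-1.40 log2), MMP24 (-1.19), CTSC (-0.97), ADAMTS7 (0.80) and CTSH (0.78). Their intervals for the ratio of siERRG3 to siERRG2 were 0.328 to 0.433, 0.390 to 0.487, 0.477 to 0.542, 1.19 to 2.66 and 1.27 to 2.38. ESRRG was at 211 counts in siERRG2 and 230 in siERRG3. The part of the ESRRG level in these differences was not tested.

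**Figure D4:**
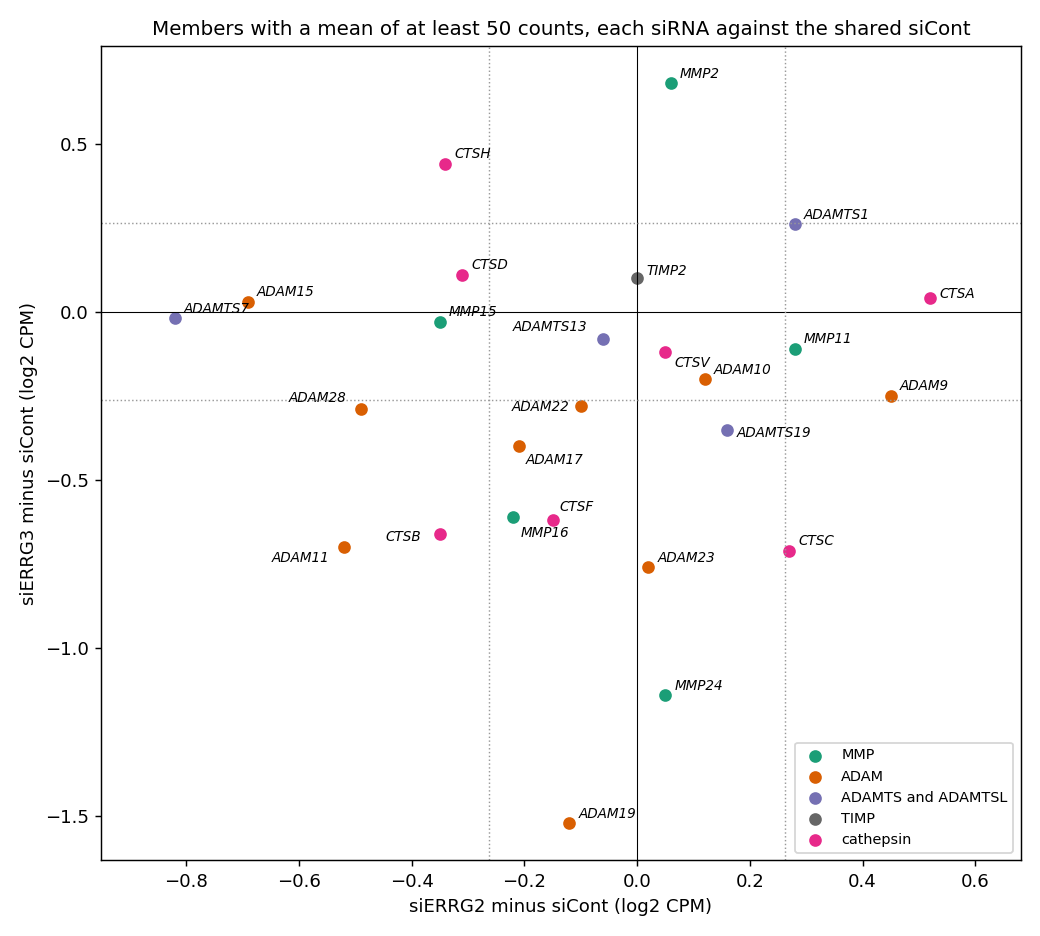
Log2 CPM difference to siCont of the 26 well-counted members, siERRG2 on the x axis and siERRG3 on the y axis, 1 point per gene, coloured by family, with dotted lines at 1.2-fold. Both axes share the siCont library; ADAM11, ADAM28 and CTSB lie past the lower line on both axes, whereas ADAM19 and MMP24 lie low on the y axis and near 0 on the x axis.

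Other genes of pericellular proteolysis were described from lists, whose counts are at the 1.2-fold threshold and stand against 19.2% lower and 16.4% higher of all genes tested in siERRG2, and 25.1% and 23.2% in siERRG3. In the plasmin system, 5 of 10 genes passed the filter, with 3 lower and 1 higher in siERRG2 and 1 lower and 1 higher in siERRG3. SERPINF2, called lower in both, had 10, 5 and 4 counts, and both its intervals included 1. It passed the filter through siCont alone, the library where it was high. PLAU, the urokinase that converts plasminogen, had 62, 156 and 101 counts, higher with both siRNAs. Its log2 fold changes were 1.29 and 0.66, with intervals of 1.84 to 3.39 and 1.16 to 2.23. Of the other protease inhibitors, 11 of 14 listed passed, with 4 lower and 3 higher in siERRG2 and 3 lower and 3 higher in siERRG3. SERPINA1, the inhibitor of neutrophil elastase, had 86, 31 and 45 counts and was lower with both, at -1.43 and -0.93.

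Among other matrix enzymes, 10 of 14 passed, with 1 lower and 5 higher in siERRG2 and 3 lower and 5 higher in siERRG3. ECE2, called higher in both, had 0, 9 and 15 counts. It passed the filter through siERRG3 alone, so its calls were favoured by the filter. HPSE, the heparanase that cuts heparan sulfate, had 47, 95 and 146 counts and was higher with both siRNAs, at 0.97 and 1.57 log2. HYAL3, a hyaluronidase family member, had 197, 298 and 309 counts, at 0.58 and 0.62. Both thus stood above siCont in each ESRRG siRNA library.

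In the lysosomal sorting list all 11 genes passed, with 1 lower and 4 higher in siERRG2 and 2 lower and 3 higher in siERRG3. LAMP2, a lysosomal membrane protein, had 2307, 3320 and 2848 counts, at 0.51 and 0.28 log2. NAGPA, which uncovers the mannose 6-phosphate tag of lysosomal enzymes, had 212, 283 and 284 counts, at 0.40 and 0.39. TFEB, a transcription factor that binds CLEAR elements, had 226, 144 and 190 counts, at -0.66 and -0.27, and its siERRG3 interval of 0.678 to 1.01 included 1.

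Of the cystatins, which inhibit cysteine cathepsins, 2 of the 6 listed passed the filter, with 0 called in siERRG2 and 1 lower and 1 higher in siERRG3. Of the activators and partners, 13 of 15 passed, with 2 lower and 4 higher in siERRG2 and 4 lower and 1 higher in siERRG3, and 0 well-counted genes were called the same way in both. RHBDF1, called higher in both, had 7, 11 and 11 counts and reached the filter only in ESRRG siRNA libraries. FURIN, the convertase that removes the propeptide of ADAMs and membrane-type MMPs, had 731, 315 and 756 counts, at -1.23 and 0.02 log2. LGMN, the legumain that processes cathepsins, had 498, 652 and 307 counts, at 0.37 and -0.72. FURIN was low in siERRG2 alone, and LGMN lay on opposite sides of siCont. FURIN, LGMN, SERPINF2, ECE2 and RHBDF1 were picked once their values had been seen.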

How the data were processed

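RNA of H128 cells was sequenced in 3 libraries, 1 per condition, and grouped by the sample titles. According to the study's methods, the authors aligned the reads to GRCh37/hg19 with BWA and Bowtie 2; the submitters' processing notes list TopHat2, HTSeq and DESeq2, and the counting program is not settled by these sources. The authors deposited estimated counts (expected counts) per gene, of which 54.0% to 54.9% were whole numbers (within 1e-09). A further value deposited by the authors was read here as FPKM, although its unit is not named. Their log2 ratios, p-values and adjusted values were not used.

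Counts were rounded to whole numbers. Library sizes were scaled with TMM (edgeR 4.0.16, R 4.3.3; factors 0.994, 1.003 and 1.003), and log2 CPM used a prior count of 2. Genes reaching 10 counts in any library were tested. Intervals are 95% exact binomial ones (SciPy 1.17.1) for counting error only. Members with 3 or fewer counts in every library were tallied as at the floor, which changed no fold change or call. With 1 library per condition, no model was fitted. For 21 members, 10 of them among the 26 well counted (a mean of 50 counts or more over the libraries), some counts were not whole, and the table's extent of 17 members was at least 3 times that of RefSeq.

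The members, subclasses and lists were chosen with earlier results of these data known. Genes named are ESRRG, the TIMPs, MMP9, MMP23B and ADAMTS2, the 3 highest members of each family by FPKM in siCont, well-counted members changed the same way by 1.2-fold in both ESRRG siRNA libraries, the 5 well-counted members with the largest difference between these libraries, the MMP cluster on chromosome 11 as counts and ranges, and, of the lists, well-counted genes called the same way in both. Others were picked once their values had been seen. Subclasses follow textbook knowledge. The computations were tested on simulated data. Alternatives were DESeq2 1.42.0 size factors, total counts, FPKM with a pseudocount of 0.1, a prior count of 0.5, all genes without the filter, well-counted genes alone, a 1.5-fold threshold, and an interval that excludes 1. Protein sequences were not analysed here.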

Additional observations from a re-analysis of the deposited data

How the results depend on the processing

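No paired analysis was possible because each condition had 1 library, and leaving out a library removes a comparison. Of the 49 members tested, the counts lower and higher in siERRG2, lower and higher in siERRG3, lower in both and higher in both were 18, 9, 22, 10, 9 and 4. For genes averaging 50 counts or more, with scaling recomputed on them (26 members), they were 8, 5, 12, 3, 3 and 1, where ADAMTS1 crossed the threshold in siERRG3. With an interval that excludes 1 they were 6, 4, 13, 4, 2 and 0. With a 1.5-fold threshold, 7 were lower and 2 higher in siERRG2, 14 were lower in siERRG3, 2 were lower in both and 1 was higher in both. With no filter (69 members), 21 were higher in siERRG2, 20 in siERRG3 and 12 in both. Fewer members, a stricter rule or members of a few counts enter by construction. The scalings, the prior count and FPKM left these counts within 1.5 times. Without the filter, the siERRG3 medians were -0.11 for the MMPs and -0.26 for the ADAMs, now within 1.2-fold, and -0.35 for the ADAMTS and ADAMTSL genes, now past it, as was the siERRG2 median of the TIMPs at -0.42. The ADAM median in siERRG3 was -0.25 by FPKM. Over the 26 members the MMP medians were 0.05 in siERRG2 and -0.10 in siERRG3, and the cathepsin medians -0.15 and -0.10. The other family medians stayed on their side of 1.2-fold with the scalings, the prior count, FPKM and both filters, the alternatives run for them. CTSC was 0.38 in siERRG2 and -0.83 in siERRG3 by FPKM, against 0.27 and -0.71 by counts, and the cause was not tested. Of the 23 members averaging under 50 counts, 5 had an interval that excluded 1 in either library.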
